A study of Mus musculus with 6 samples.

Results

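Endothelial cells of the mouse cortex on postnatal day 5 (P5) were examined in single-cell RNA sequencing of 3 WT and 3 *Fmr1*-KO mice. The cells are those that the authors' deposited annotation places in the subtype "Endothelial", and they numbered 1439 of 18393 cells in all, or 8.33% of the 17280 cells that were not marked as doublets. The WT mice were of the strain FVB.129P2-Pde6b+ Tyrc-ch/AntJ and the *Fmr1*-KO mice of FVB.129P2-Pde6b+ Tyrc-ch Fmr1tm1Cgr/J, so that both groups share the Pde6b+ and Tyrc-ch alleles and differ by the germline *Fmr1* allele, which every cell of the animal carries. No mouse was treated, and the cortex of both hemispheres was dissociated with papain. Cells were caught by InDrop, in which every cell shares a droplet with a bead whose primers carry a cell barcode and a random molecular tag (the unique molecular identifier, UMI). Copies of a transcript made by PCR hold the same UMI and count once. WT 1, *Fmr1*-KO 1 and *Fmr1*-KO 2 were caught with V2 beads, and WT 2, WT 3 and *Fmr1*-KO 3 with V3.8 beads.

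Endothelial cells line the blood vessels. In the brain they form the blood-brain barrier: tight junctions seal the gaps between them, transporters carry glucose, amino acids and lipids across them, and Wnt signals from the neural tissue keep this state. The postnatal cortical vasculature still grows by sprouting, in which vascular endothelial growth factor (VEGF) guides tip cells and Notch signals restrain their neighbors, and it recruits pericytes, the contractile cells that share its basement membrane.

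WT 1, WT 2 and WT 3 gave 81, 190 and 398 endothelial cells, and *Fmr1*-KO 1, 2 and 3 gave 127, 262 and 381. Their counts summed to between 333085 UMIs in WT 1 and 2285566 in WT 3, and the median cell held 3687 UMIs from 1731 genes. Depth differed within a bead version too, with a median of 5475.5 UMIs in WT 3 and 2227 in WT 2, both caught with V3.8 beads. Of the endothelial cells 473 carried a barcode that also occurred in another of the 17 libraries, and these cells were kept because libraries were barcoded separately. The summed level of 4 Y-linked genes was 5.98 UMIs per 1000000 UMIs (CPM) in *Fmr1*-KO 2 and between 159 and 325 CPM in the other 5 mice, so *Fmr1*-KO 2 stood apart in this respect. The study used mice of both sexes, but the labels give no sex for each mouse, so sex was not part of the comparisons. Levels below are CPM of the UMIs summed over the endothelial cells of a mouse, given as mean ± SD over mice.

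The label was first checked against its defining markers. *Cldn5*, which encodes the main claudin of brain endothelial tight junctions, was detected in 98.2% of the endothelial cells, whereas 4.49% of pericytes had a UMI of it. The median depth of a mouse ran from 1774 to 5475.5 UMIs in endothelial cells and from 1616.5 to 3657.5 UMIs in pericytes. Its level was 5683, 6887 and 7993 CPM in WT 1 to 3 and 5188, 5560 and 6576 CPM in *Fmr1*-KO 1 to 3, with a mean of 6315 ± 1044 CPM (SD, n = 6). The next subtype, interneurons, held 43.3 CPM of it when their cells were pooled. *Pecam1*, an adhesion molecule of the endothelial junction, was at 704 ± 54.8 CPM (SD, n = 6), with microglia next at 14.3 CPM. *Flt1*, a receptor that binds VEGF and limits its action, was at 677 ± 54.5 CPM (SD, n = 6) and at 48.6 ± 16.8 CPM in pericytes. *Cdh5*, the cadherin of endothelial adherens junctions, was at 846 ± 126 CPM (SD, n = 6), and here the next subtype was not far below, since fibroblasts held 326 CPM.

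All 4 defining genes were thus highest in the cells that carry the label. In GRCm38 they lie at chr16:18776847-18778262 (*Cldn5*), chr11:106654217-106750628 (*Pecam1*), chr5:147561604-147726011 (*Flt1*) and chr8:104101625-104144511 (*Cdh5*). The share of cells with a UMI depends on depth. When each cell was thinned to 700 UMIs, which left out 12 endothelial cells with fewer, a UMI of *Cldn5* was still found in 95.8% of the endothelial cells, against 37.6% for *Pecam1*, 34.3% for *Flt1* and 40.4% for *Cdh5*. In thinned pericytes, the neighbors of endothelial cells, these shares were 1.57%, 0.225%, 2.70% and 0.337%.

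A set of 20 genes with the largest ratio of the endothelial level to that of the next of 14 other subtypes with at least 50 cells was taken to describe the population. Because the authors clustered these same cells on their expression, the ratios are a description and no test was made. Receptors and surface proteins of the vessel wall were among them. *Kdr*, the main signaling receptor for VEGF, was at 3535 ± 670 CPM (SD, n = 6) and 98.7-fold above pericytes. *Eltd1*, an adhesion receptor of endothelial cells, was 126-fold above the next subtype. *Ptprb*, the phosphatase that acts on the angiopoietin receptor Tek, was 79.2-fold above it, *Mmrn2*, a matrix protein of the endothelial surface, 78.0-fold and *Robo4*, a guidance receptor of vessels, 57.2-fold. The ratio of *Cldn5* was 158-fold and that of *Pecam1* was 50.1-fold.

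Transcription factors formed another group among the 20. *Sox17* stood 113-fold, *Erg* 62.7-fold and *Sox18* 57.6-fold above the next subtype, and all are known regulators of endothelial identity. *Foxl2* was 47.3-fold above ependymal cells, which held 2 UMIs of it, so that its 95% counting interval ran from 13.0 to 391-fold. The glutamine and amino acid transporter *Slc38a5* was 134-fold above the next subtype, again on 2 UMIs (37.1 to 1108-fold), and its level of 1151 ± 440 CPM (SD, n = 6) ranged from 838 CPM in WT 1 to 2034 CPM in *Fmr1*-KO 3. *Scgb3a1* was 57.2-fold above fibroblasts on 1 UMI (10.2 to 2261-fold). *Apln*, a peptide ligand of sprouting vessels, was 46.4-fold above Astrocytes_1, and *Ly6c1* and *Ly6a*, surface antigens of brain endothelium, were 52.4-fold and 45.7-fold above pericytes. The other genes were *Tmem252* (109-fold), *AU021092* (59.5-fold), *Exoc3l* (47.0-fold) and *Ccl21a* (228-fold). The last has near-identical copies in the mouse genome, so its counts are uncertain. The gene just outside the set was *Slco1a4*, an organic anion transporter, at 44.8-fold, next to *Ly6a* at 45.7-fold just inside.

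**Figure D1:**
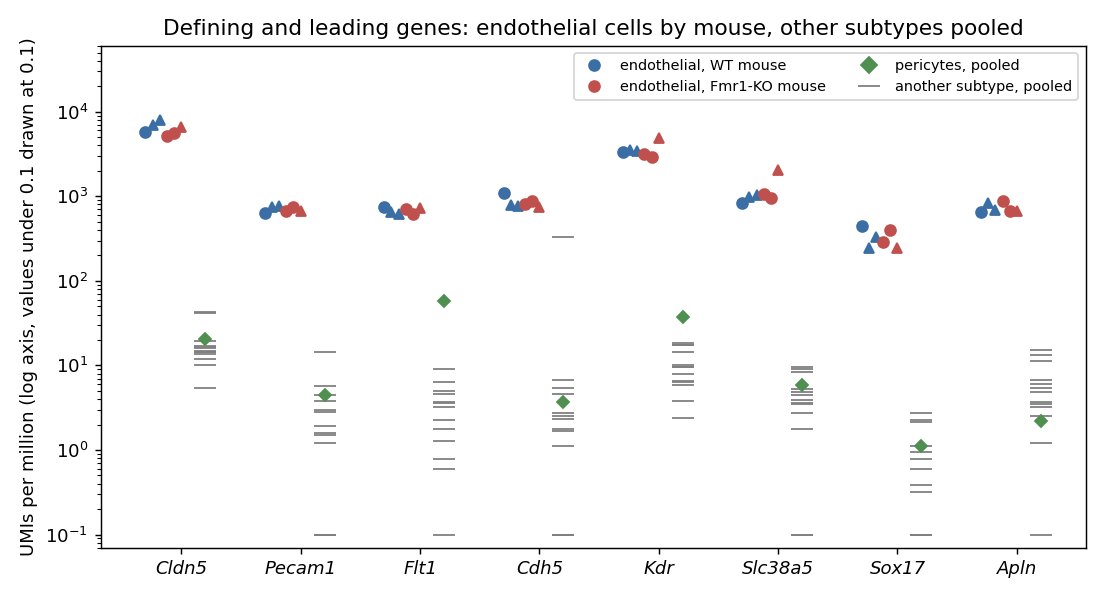
Level of 8 genes in CPM (log axis). Colored points are the endothelial cells of single mice (blue WT, red *Fmr1*-KO, circles V2 beads, triangles V3.8 beads), green diamonds the pooled pericytes and gray dashes the other pooled subtypes with 50 or more cells. For *Cldn5* the 6 mice sit between 5188 and 7993 CPM and the next subtype at 43.3 CPM, whereas the gap is smallest for *Cdh5*, where fibroblasts reach 326 CPM.

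The promoters of the leading genes *Cldn5*, *Kdr* and *Slc38a5* and of the defining gene *Flt1*, which was not among the 20, are shown. Each sequence spans 250 bases before to 50 bases from the start of the gene in RefSeq (GRCm38.p6), written along the strand of the gene: chr16:18776597-18776896 (plus) for *Cldn5*, chr5:147725962-147726261 (minus) for *Flt1*, chr5:75978406-75978705 (minus) for *Kdr* and chrX:8271131-8271430 (plus) for *Slc38a5*. Capitals mark matches to AGGAAG (an ETS core), CCAAT and TATAAA, searched on both strands.
Cldn5: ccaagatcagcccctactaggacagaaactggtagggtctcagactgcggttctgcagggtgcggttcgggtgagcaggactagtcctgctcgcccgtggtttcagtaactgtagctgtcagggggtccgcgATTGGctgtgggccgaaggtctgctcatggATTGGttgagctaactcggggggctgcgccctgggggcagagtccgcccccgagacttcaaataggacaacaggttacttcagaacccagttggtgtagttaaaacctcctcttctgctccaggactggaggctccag
Flt1: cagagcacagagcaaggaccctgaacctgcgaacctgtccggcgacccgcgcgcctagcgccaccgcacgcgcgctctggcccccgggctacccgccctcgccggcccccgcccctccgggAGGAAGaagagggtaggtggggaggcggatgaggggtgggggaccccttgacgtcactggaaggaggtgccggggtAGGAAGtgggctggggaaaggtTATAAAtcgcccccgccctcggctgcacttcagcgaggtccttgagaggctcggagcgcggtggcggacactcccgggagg
Kdr: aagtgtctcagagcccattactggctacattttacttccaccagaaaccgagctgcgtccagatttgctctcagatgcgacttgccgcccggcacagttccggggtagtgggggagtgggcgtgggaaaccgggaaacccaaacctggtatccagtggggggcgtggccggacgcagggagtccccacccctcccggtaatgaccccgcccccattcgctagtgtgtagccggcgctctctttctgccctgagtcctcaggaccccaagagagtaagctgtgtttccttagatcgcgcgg
Slc38a5: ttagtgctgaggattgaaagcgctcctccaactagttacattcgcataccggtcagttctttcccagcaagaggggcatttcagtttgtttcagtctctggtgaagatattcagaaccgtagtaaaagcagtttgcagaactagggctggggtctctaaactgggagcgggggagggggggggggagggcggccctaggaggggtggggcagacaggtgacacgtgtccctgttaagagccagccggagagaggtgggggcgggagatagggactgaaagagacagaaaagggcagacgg
The *Cldn5* window held CCAAT on the strand opposite to the gene, written ATTGG, with first bases at −118 and −88 from the start. The *Flt1* window held AGGAAG at −129 and −53 and TATAAA at −31. No match was found in the windows of *Kdr* and *Slc38a5*. Among 32851 mouse promoters of the same length, AGGAAG was present in 35.4%, CCAAT in 37.4% and TATAAA in 13.6%. RefSeq windows were matched for 11 of the 20 leading genes, of which 4 held AGGAAG, 5 held CCAAT and 1 held TATAAA. The matched motifs did not overlap each other in the windows shown.

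Genes of known function were then ordered by subtype. Of 11742 genes with at least 10 UMIs in endothelial cells, 917 (7.81%) were highest in endothelial cells among the subtypes with 50 or more cells, and 5429 (46.2%) were higher there than in pericytes. All 27 genes of a list of endothelial identity were highest in these cells. Their summed level was also steady between mice, at 16787 ± 84.2 CPM in WT (SD, n = 3) and 16747 ± 473 CPM in *Fmr1*-KO (SD, n = 3), whereas pericytes held 1245 ± 47.9 CPM (SD, n = 6).

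Transport genes of the blood-brain barrier were highest in endothelial cells for 21 of 26 listed genes. *Slc2a1*, the glucose transporter of the barrier, was at 1425 ± 454 CPM (SD, n = 6), with 895 CPM in *Fmr1*-KO 1 and 2089 CPM in WT 3 as the extremes. *Mfsd2a*, which carries lysophospholipids with docosahexaenoic acid and restrains transcytosis, was at 1999 ± 258 CPM, and *Slco1c1*, a thyroxine transporter, at 1815 ± 293 CPM (SD, n = 6 for both). The monocarboxylate transporter *Slc16a1* was at 2693 ± 666 CPM, against 14.7 ± 9.23 CPM in pericytes. The amino acid transporters *Slc7a5* and *Slc7a1* were at 2487 ± 678 CPM and 1749 ± 393 CPM, the efflux pump *Abcb1a* at 425 ± 47.8 CPM and the transferrin receptor *Tfrc* at 862 ± 198 CPM (SD, n = 6 for each). Exceptions included *Slc7a3*, *Slc38a3*, *Slc6a20a* and *Slc1a1*. For example, *Slc1a1*, a glutamate transporter, was at 93.1 CPM in pooled endothelial cells and at 527 CPM in oligodendrocytes, and *Slc38a3* was at 332 CPM against 453 CPM in Astrocytes_1.

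Junction genes were shared more widely, and 11 of 19 were highest in endothelial cells. *Ocln*, a transmembrane protein of tight junctions, was at 164 ± 23.8 CPM (SD, n = 6), 2.13-fold above ependymal cells. *Esam*, an adhesion molecule of endothelial junctions, was at 1816 ± 236 CPM and also present in pericytes at 491 ± 61.2 CPM (SD, n = 6 for both). By contrast, the scaffold gene *Tjp1* was at 312 CPM in pooled endothelial cells and 325 CPM in fibroblasts. Of the other claudins sometimes listed for the barrier, *Cldn3* had no UMI in the 6302073 UMIs of the endothelial cells, which allows up to 0.476 CPM, *Cldn1* had 2 and *Cldn12* had 33. *Cldn25* gave 498 UMIs (79.0 CPM), but it was higher in all but 1 of the 14 other subtypes, and highest in oligodendrocytes at 274 CPM.

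Receptors for vascular growth factors marked endothelial cells, whereas the ligands mostly did not. In the list of VEGF and angiopoietin signaling 13 of 19 genes were highest there. *Tek* and *Tie1*, the angiopoietin receptor pair, were at 235 ± 22.4 CPM and 226 ± 70.8 CPM, *Flt4* at 145 ± 30.3 CPM and the apelin receptor *Aplnr* at 524 ± 132 CPM (SD, n = 6 for each). *Nrp1*, a co-receptor for VEGF, was at 1151 ± 269 CPM but reached 713 CPM in the SVZ subtype as well. *Vegfa* was at 6.96 ± 4.76 CPM (SD, n = 6) and highest in Astrocytes_1 (295 CPM), and *Angpt1*, the agonist of Tek, had 6 UMIs in all endothelial cells and was highest in Cajal-Retzius cells (the subtype CR; 239 CPM).

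Signals that pattern vessels were divided between the cell types. In the Notch list 5 of 14 genes were highest in endothelial cells, among them the ligands *Dll4* (314 ± 82.8 CPM) and *Jag2* (122 ± 26.1 CPM) and the receptor *Notch4* (141 ± 48.7 CPM; SD, n = 6 for each). *Notch3*, the receptor of mural cells, was at 73.0 ± 38.4 CPM against 1225 ± 232 CPM in pericytes. Of 20 genes of Wnt signaling at the barrier 9 were highest in endothelial cells. *Apcdd1*, a target and inhibitor of Wnt signaling, reached 3407 ± 709 CPM (SD, n = 6) and was detected in 95.6% of cells, and *Lef1*, a nuclear effector, was at 212 ± 28.3 CPM. *Fzd4*, the receptor for norrin, was low at 19.97 ± 10.03 CPM, yet highest in this subtype, and *Fzd6* was at 437 ± 37.8 CPM. For TGF-beta and BMP signaling the count was 6 of 16, with *Eng* (713 ± 110 CPM) and *Acvrl1* (183 ± 42.9 CPM), which encode a co-receptor and a receptor of BMP9.

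Transcription factors and genes of flow sensing were mostly led by endothelial cells, with 19 of 27 and 12 of 18 genes. *Foxq1* (681 ± 121 CPM) and *Foxf2* (420 ± 115 CPM; SD, n = 6 for both), known from brain vessels, were 3.44-fold and 1.17-fold above pericytes, the next subtype. *Klf2*, which responds to shear stress, varied from 720 CPM in *Fmr1*-KO 1 to 1901 CPM in WT 2. *Nos3*, the endothelial nitric oxide synthase, was 30.9-fold above the next subtype at 329 ± 67.2 CPM (SD, n = 6). *Plvap*, which forms the diaphragms of permeable vessels, had 11 UMIs in all 1439 cells. In the list of leukocyte adhesion 1 of 9 genes was highest in endothelial cells, *Icam2* (272 ± 39.4 CPM), and *Selp* had no UMI.

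Basement membrane genes were mostly highest in pericytes. Of this list 4 of 17 genes were highest in endothelial cells and 10 were highest in pericytes. *Col4a1*, a chain of the main collagen of the basement membrane, was at 1892 ± 225 CPM in endothelial cells and 6044 ± 514 CPM in pericytes, and *Nid1* was at 434 ± 109 CPM against 1260 ± 78.7 CPM (SD, n = 6 for each). In each of the 6 mice both genes were higher in pericytes. *Fn1*, fibronectin, went the other way, with 2199 ± 163 CPM in endothelial cells and 407 ± 27.0 CPM in pericytes. Among genes that recruit pericytes, *Pdgfb*, the growth factor that attracts them, was at 403 ± 67.0 CPM in endothelial cells and 25.6 ± 11.4 CPM in pericytes.

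**Figure D2:**
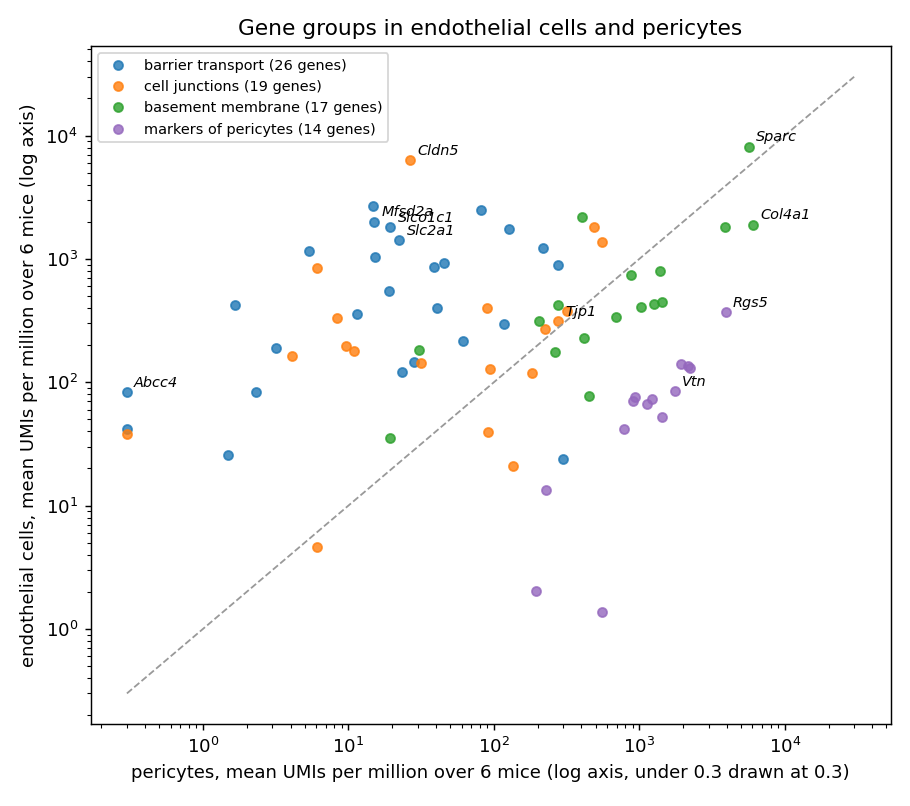
Mean level over 6 mice of genes of 4 lists in pericytes (x) and endothelial cells (y), in CPM on log axes, with a dashed line of equal levels. Of 26 transport genes 25 lie above the line by pooled level, as do 15 of 19 junction genes, whereas 6 of 17 basement membrane genes and none of the 14 pericyte markers do.

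Among general lists, endothelial cells were highest for 25 of 83 ribosomal protein genes and 6 of 15 genes of MHC class I and interferon, for 4 of 20 immediate early genes and 5 of 78 respiratory chain genes, of which 42 were highest in pericytes. The count was 0 for 32 genes of dividing cells, 19 of glycolysis and hypoxia, 18 of cholesterol synthesis and the 3 metallothioneins.

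Some genes marked both vascular types. The 10 genes with the largest ratio of the lower of the endothelial and pericyte levels to the next subtype were *Emcn*, *Igfbp7*, *Pcdh12*, *Esam*, *Scarf1*, *Mcam*, *Gja4*, *Car4*, *Ebf1* and *Ets1*, with ratios from 62.5-fold for *Emcn* to 9.40-fold for *Ets1*. *Rgs5*, a pericyte marker, came next at 8.37-fold. *Emcn*, a sialoglycoprotein of the vessel surface, was at 246 ± 76.9 CPM in endothelial cells and 172 ± 44.7 CPM in pericytes (SD, n = 6 for both), and *Mcam*, an adhesion molecule, was at 549 ± 109 CPM and 1433 ± 245 CPM. UMIs of pericyte markers were found in the endothelial cells as well. The 14 pericyte markers summed to 1552, 1588 and 418 CPM in WT 1 to 3 and to 864, 1056 and 2089 CPM in *Fmr1*-KO 1 to 3, against 19422 ± 2671 CPM in pericytes (SD, n = 6). A UMI of at least 2 of these genes was found in 40.7%, 28.9% and 12.3% of the endothelial cells of WT 1 to 3 and in 10.2%, 19.8% and 52.8% of those of *Fmr1*-KO 1 to 3. The share was at most 1.08% in microglia of any mouse, but between 17.6% and 34.7% in Astrocytes_1. In endothelial cells the markers of the other cell types gave sums from 700 to 1267 CPM for astrocytes, 66.5 to 583 CPM for neurons, 41.5 to 131 CPM for microglia, 76.2 to 148 CPM for the oligodendrocyte lineage, 39.4 to 147 CPM for fibroblasts and at most 30.0 CPM for ependymal cells. *Mog* and *Mag* of oligodendrocytes, *Lum*, *Col6a1* and *Slc6a13* of fibroblasts and *Sntn* of ependymal cells had no UMI. The part that pericyte RNA plays in the genes shared by both types was not tested.

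Endothelial cells also varied among themselves. Cells with a UMI of arterial genes (*Bmx*, *Gkn3* or *Sema3g*), tip cell genes (*Esm1*, *Apln* or *Angpt2*), or genes of dividing cells (*Mki67* or *Top2a*) were set against the cells without one, as a description with no test. The venous gene *Slc38a5* and the capillary gene *Mfsd2a* were found in most cells: 83.2% had a UMI of *Slc38a5* or *Ackr1* and 88.5% one of *Mfsd2a*, against 2.25% and 3.15% of pericytes. In oligodendrocytes the shares were 26.8% and 46.6%. Cells with an arterial UMI numbered 191 (13.3%; 0.337% of pericytes), and of these 97.4% also had *Mfsd2a* and 78.0% *Slc38a5* or *Ackr1*. Their median depth was 5739 UMIs, against 3354 in the other cells, so that detection and depth were linked.

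The next 8 genes, known from arteries or the vessel wall, were higher in the cells with an arterial UMI in each of the 6 mice. *Vegfc*, a ligand of the receptor Flt4, was at 129 CPM in them and 6.79 CPM in the rest (19.1-fold). *Fbln5* and *Fbln2*, components of elastic fibers and vessel matrix, were at 177 and 218 CPM, against 9.50 and 15.5 CPM. The chemokine *Cxcl12* was at 1023 CPM against 254 CPM, the gap junction gene *Gja4* at 408 CPM against 90.9 CPM, and *Unc5b*, a netrin receptor, at 434 CPM against 153 CPM. *Efnb2*, the ephrin of arteries, was 2.79-fold and *Hey1*, a Notch target, 1.85-fold higher. Of the other listed arterial genes *Edn1* and *Jag1* were also higher in each mouse. By contrast, *Mgp* was higher in 4 mice and lower in 1, and *Gja5*, with 8 UMIs in these cells, was higher in 1 and lower in 3. Notch genes went both ways, since *Dll4* and *Jag2* were higher in each mouse and *Heyl* and *Nrarp* lower in 5. The cell cycle gene *Ccna2* was lower, at 10.5 CPM against 42.3 CPM. *Kdr* was close in both, at 3891 CPM against 3708 CPM.

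Cells with a tip cell UMI were common, at 881 of 1439 (61.2%; 8.99% of pericytes). Their median depth was 4779 UMIs, against 1890 in the other cells, so that detection and depth were linked here as well. In thinned cells the share was 35.0% (3.03% of pericytes). *Fbln2*, *Vegfc* and *Cxcl12*, which were higher in cells with an arterial UMI, were lower in each mouse in cells with a tip cell UMI. Their levels were 14.5, 8.33 and 225 CPM there, against 161, 88.8 and 878 CPM in the other cells. The genes *Trp53i11* (232 CPM against 69.7 CPM), *Adm*, the vasodilator adrenomedullin (151 CPM against 55.5 CPM), and *Mcam* (635 CPM against 309 CPM) were higher in each mouse. Cells with a UMI of *Mki67* or *Top2a*, called dividing here, numbered 305 (21.2%; 12.2% of pericytes and 1.41% of oligodendrocytes). In thinned cells these shares were 8.20%, 6.29% and 1.13%. The median depth was 5832 UMIs in the endothelial cells called dividing and 3060.5 in the other endothelial cells. The summed level of the 32 genes of dividing cells was higher in pericytes, at 2466 ± 724 CPM (SD, n = 6). In endothelial cells its mean was 1371 CPM in WT and 1878 CPM in *Fmr1*-KO. Of these genes 3 were higher in endothelial cells than in pericytes by pooled level. In the endothelial cells called dividing, *Tk1*, a thymidine kinase of S phase, was at 118 CPM against 8.28 CPM, and *Cxcl12* was at 135 CPM against 509 CPM. *Cldn5* was 0.816-fold in dividing cells and lower in each of the 6 mice.

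After each cell was thinned to 700 UMIs, the share with a UMI of a dividing-cell gene was 7.35 ± 1.16% in WT and 8.98 ± 0.939% in *Fmr1*-KO (SD, n = 3 each), the share with a tip cell UMI 37.6 ± 5.34% and 32.2 ± 4.59%, and the share with an arterial UMI 3.78 ± 1.76% and 3.44 ± 1.16%. The unthinned shares were 21.6 ± 6.97% and 22.3 ± 3.68% for dividing-cell genes, 64.1 ± 7.25% and 54.0 ± 11.5% for tip cell genes and 13.97 ± 3.00% and 11.8 ± 2.77% for arterial genes. The ranges of the genotypes overlapped in each of the 3 thinned shares, and no test was made.

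Numbers of endothelial cells were compared next, to ask whether the genotype changed their share. Endothelial cells made up 3.05%, 5.16% and 11.7% of the cells of WT 1 to 3 and 6.27%, 10.2% and 13.0% of those of *Fmr1*-KO 1 to 3. The libraries of a mouse ranged from 2.77% to 3.35% in WT 1 and from 12.2% to 13.7% in *Fmr1*-KO 3, but from 9.42% to 13.99% in WT 3, which spans the values of *Fmr1*-KO 2 (9.66% to 10.9%). Within V2 beads both *Fmr1*-KO mice lay above WT 1, and within V3.8 beads *Fmr1*-KO 3 lay above both WT mice. With bead version in the model the log2 fold change was 1.02 (SE 0.55), which did not pass edgeR's quasi-likelihood test over 18 subtypes (FDR = 0.50). Without the bead version term it was 0.57. Leaving out 1 mouse at a time gave 0.63 to 1.43 (lowest FDR 0.43).

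The ratio of endothelial cells to pericytes, which does not depend on how many other cells were caught, was 1.35, 1.36 and 1.90 in WT 1 to 3 and 2.19, 4.44 and 1.05 in *Fmr1*-KO 1 to 3. The *Fmr1*-KO mice held both the highest and the lowest value, and they lay above WT within V2 beads and below WT within V3.8 beads. The mean log2 ratio differed by 0.51 between genotypes (exact two-sided permutation test, p = 0.6, n = 3 each, where 0.1 is the smallest p the design allows). Without *Fmr1*-KO 2 the difference was −0.0027, so that its size rests on that mouse. The authors' doublets were unevenly spread. Of the 212 doublets with an endothelial main type 193 came from WT 2, where they made up 50.4% of that main type, and the other mice had 1 to 6. The WT 2 doublets had a median of 1645 UMIs, fewer than the 2227 of its endothelial cells, and held 4902 CPM of the astrocyte markers, against 1267 CPM in its endothelial cells. The 4 defining endothelial genes summed to 5777 CPM in them and to 9073 CPM in the endothelial cells. With the doublets counted as endothelial cells, the log2 difference in the share was 0.78 and that in the ratio to pericytes 0.16.

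**Figure D3:**
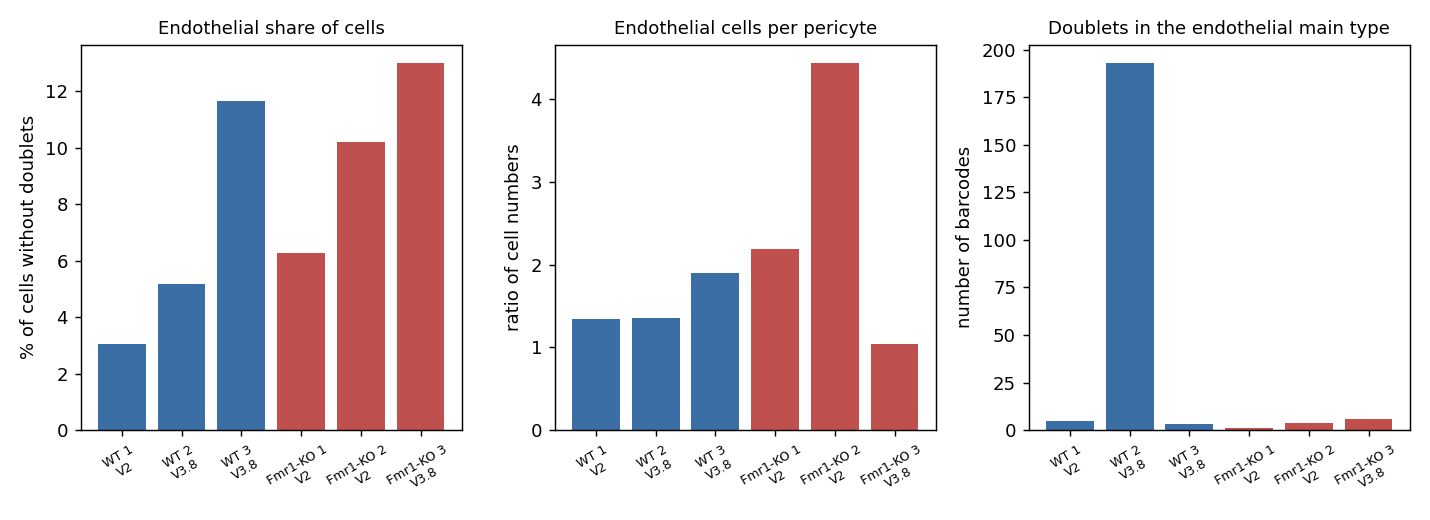
Endothelial share of the cells that are not doublets (left, %), endothelial cells per pericyte (middle) and number of doublets with an endothelial main type (right) in each mouse, with WT in blue and *Fmr1*-KO in red. The shares run from 3.05% in WT 1 to 13.0% in *Fmr1*-KO 3 with overlapping genotypes, and 193 of the 212 doublets come from WT 2.

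The genotypes were then compared gene by gene in endothelial cells, with mice as replicates. The targeted gene, *Fmr1* (chrX:68678541-68717963), gave 8, 24 and 68 UMIs in WT 1 to 3 and 5, 10 and 9 UMIs in *Fmr1*-KO 1 to 3. Its level was 24.0, 41.4 and 29.8 CPM in WT and 9.84, 11.95 and 5.12 CPM in *Fmr1*-KO, so the groups did not overlap. The log2 fold change was −1.99 (SE 0.41; −1.11 without *Fmr1*-KO 3), with FDR = 0.18 in edgeR's quasi-likelihood test over the genes tested. *Fmr1* was found in 7.44% of the endothelial cells and so lay below the filter on detection, but it was kept in the fit to check the labels. UMIs are counted at the 3′ end of the transcript, outside the disrupted exon, and residual UMIs say nothing of the protein. In pericytes the log2 fold change of *Fmr1* was −3.18 (SE 0.44, FDR = 0.0052).

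Of 4081 genes tested in endothelial cells, 0 (0%) passed FDR under 0.01 in edgeR's quasi-likelihood test with Benjamini-Hochberg adjustment, and 0 passed FDR under 0.05. In simulated counts with 200 changed genes, the same test called 74.5% of them at a log2 fold change of 1 and 0% at 0.5. The simulation gave every gene the same dispersion (its spread between mice) and no bead effect, so power in the real counts may be lower. The count of 0 therefore does not show that changes are absent, whether of this size or smaller. At an unadjusted p under 0.05, 283 genes (6.93%) were higher and 165 (4.04%) lower in *Fmr1*-KO. Without TMM scaling this split turned to 175 higher and 258 lower, and the median log2 fold change of all genes moved from 0.00012 to −0.071. Without *Fmr1*-KO 2, the mouse that stood apart in its Y-linked genes, 0 genes were called and 365 were at this p. DESeq2 called 0 genes and gave 215 at an unadjusted p under 0.05. The values of the 3 WT and 3 *Fmr1*-KO mice did not overlap for 134 genes (3.28%) that were higher and 201 (4.93%) that were lower in *Fmr1*-KO.

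The genes below have the smallest p of those with the same sign within both bead versions, and none passed the threshold (FDR from 0.18 to 0.21 in edgeR's quasi-likelihood test). Values within V2 beads rest on WT 1 as the only WT mouse. Those within V3.8 beads rest on *Fmr1*-KO 3 as the only *Fmr1*-KO mouse. Among the 10 lower in *Fmr1*-KO, the groups did not overlap for 6 genes, against 4.93% of all genes in this direction. Choosing genes by the smallest p favors separate groups, so this count is no further support. *Pim1*, a serine/threonine kinase induced by cytokines and VEGF (chr17:29490753-29496112), was at 216, 155 and 179 CPM in WT 1 to 3 and at 94.4, 92.1 and 94.3 CPM in *Fmr1*-KO 1 to 3, with a log2 fold change of −0.93 (SE 0.18). The *Fmr1*-KO mice lay within a narrow range and the lowest WT mouse well above it. *Hey1* (chr3:8663359-8667256), an effector of Notch signaling, was at 180, 209 and 226 CPM in WT and at 169, 89.7 and 74.5 CPM in *Fmr1*-KO (log2 fold change −1.05, SE 0.24). The log2 difference was −0.55 within V2 beads and −1.54 within V3.8 beads, and *Fmr1*-KO 1 lay just below the WT mice.

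*Zfp36*, which destabilizes mRNAs of inflammatory genes, was at 405, 409 and 482 CPM in WT and 297, 319 and 230 CPM in *Fmr1*-KO (log2 fold change −0.64, SE 0.16). *March2*, a ubiquitin ligase, had a log2 fold change of −0.81 (SE 0.20) and *Ppp1r18*, an actin-binding phosphatase subunit, one of −0.64 (SE 0.17), both with separate groups. *Itga6*, an integrin that binds laminin, was at 330, 142 and 174 CPM in WT and 246, 127 and 80.7 CPM in *Fmr1*-KO (log2 fold change −0.87, SE 0.21), with overlapping groups. *Vash1*, an inhibitor of angiogenesis made by endothelial cells, had −0.63 (SE 0.15), *Mesdc1* −0.93 (SE 0.22) and *Nckap5l* −0.67 (SE 0.18), and their groups overlapped as well.

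Among the 10 genes higher in *Fmr1*-KO, chosen in the same way, the groups were separate for *Rplp2* and *Tm2d3*, against 3.28% of all genes in this direction. *Rplp2*, a protein of the ribosomal stalk (chr7:141447370-141451585), was at 718, 634 and 640 CPM in WT 1 to 3 and at 988, 1041 and 1004 CPM in *Fmr1*-KO 1 to 3 (log2 fold change 0.64, SE 0.14). *Tm2d3* was at 21.0, 32.8 and 46.4 CPM in WT and 59.0, 52.6 and 75.0 CPM in *Fmr1*-KO (log2 fold change 1.05, SE 0.26). *Atp5k*, a subunit of the mitochondrial ATP synthase, was at 201, 344 and 324 CPM in WT and 285, 239 and 671 CPM in *Fmr1*-KO (log2 fold change 0.84, SE 0.17), with *Fmr1*-KO 3 far above the rest. *Uqcr10* (0.85) and *Ndufb9* (0.70) encode other subunits of the respiratory chain, *Eif3g* (0.96) a translation initiation factor, *Polr2l* (0.73) a subunit of RNA polymerases, *Ube2c* (0.98) an enzyme of mitotic protein degradation and *Isyna1* (0.69) the enzyme of inositol synthesis. *Slc38a5* had a log2 fold change of 0.72 (SE 0.18), with 0.26 within V2 beads and 1.01 within V3.8 beads.

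**Figure D4:**
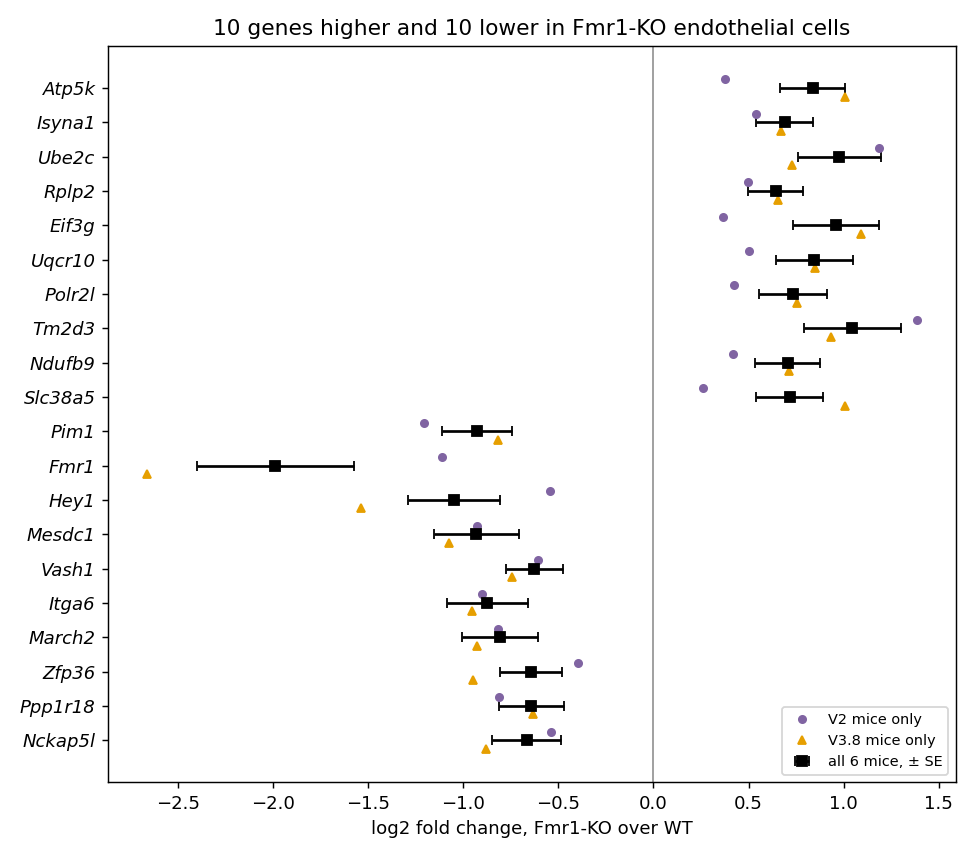
Log2 fold change of *Fmr1*-KO over WT for the 10 genes higher and the 10 lower with the smallest p (black squares with SE from the fit over 6 mice), and the difference of mean log2 levels within the V2 mice (purple circles) and within the V3.8 mice (orange triangles). Values run from −1.99 for *Fmr1* to 1.05 for *Tm2d3*, and the black squares of all 20 genes share their sign with both bead versions, which the choice of genes required.

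None of the barrier genes passed the threshold. The 4 defining genes had a median log2 fold change of −0.01, with *Cldn5* at −0.07 (SE 0.18) and *Pecam1* at 0.05 (SE 0.15), and 0 of them reached an unadjusted p under 0.05. In the transport list 10 of 23 tested genes were higher and 13 lower in *Fmr1*-KO (median −0.02), and at an unadjusted p under 0.05 *Slc38a5* and *Tfrc* were higher and *Slc7a5*, *Insr* and *Slc1a1* lower, that is 2 and 3 genes, against 6.93% and 4.04% of all genes. *Slc7a5* was at 3239, 2181 and 2935 CPM in WT and 2747, 2503 and 1316 CPM in *Fmr1*-KO (log2 fold change −0.58, SE 0.19, edgeR FDR = 0.28). *Slc2a1* was at −0.11 (SE 0.17) and *Mfsd2a* between −0.07 and −0.05 within both bead versions. Of 15 junction genes 12 were lower, 0 of them at an unadjusted p under 0.05, with a median of −0.06 that was −0.22 in cells thinned to 700 UMIs. The 16 Wnt genes had a median of 0.04 and none at this p.

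Among genes of vessel growth, 9 of 10 tip cell genes were lower in *Fmr1*-KO (median −0.25), against 2040 of all 4081 genes tested. The 3 genes *Angpt2*, *Trp53i11* and *Plaur* were at an unadjusted p under 0.05, against 4.04% of all genes in this direction. *Angpt2*, the context-dependent ligand of Tek, was at 177, 204 and 262 CPM in WT and 173, 146 and 102 CPM in *Fmr1*-KO (log2 fold change −0.71, SE 0.21, edgeR FDR = 0.25), so that *Fmr1*-KO 1 was next to WT 1. *Plaur*, the urokinase receptor, was at 42.0, 53.5 and 70.4 CPM in WT and 27.5, 33.5 and 36.9 CPM in *Fmr1*-KO (log2 fold change −0.61, SE 0.26, edgeR FDR = 0.40). In the VEGF list 7 of 13 genes were higher and 6 lower, and *Angpt2* and *Angptl4* (0.43) were the members at an unadjusted p under 0.05. In the Notch list 3 of 9 were higher and 6 lower, with *Hey1* lower and *Mfng* (0.40) higher at this p.

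Of the 27 identity genes 15 were higher and 12 lower. *Egfl7*, a secreted regulator of vessel tubes, was at 543, 447 and 514 CPM in WT and 700, 711 and 606 CPM in *Fmr1*-KO (log2 fold change 0.41, SE 0.14, edgeR FDR = 0.31), and the groups did not overlap. *Sox7*, a transcription factor related to *Sox17*, was at 372, 287 and 402 CPM in WT and 258, 219 and 230 CPM in *Fmr1*-KO (log2 fold change −0.56, SE 0.17, edgeR FDR = 0.25), again with separate groups. *Nos3* was at 315, 309 and 219 CPM in WT and 390, 408 and 331 CPM in *Fmr1*-KO (log2 fold change 0.41, SE 0.16, edgeR FDR = 0.35). Genes of dividing cells were higher for 6 of 7 tested (median 0.17, or 0.44 with the replicate number as a block), with *Top2a* at 105, 102 and 67.4 CPM in WT and 120, 129 and 127 CPM in *Fmr1*-KO (log2 fold change 0.58, SE 0.21, edgeR FDR = 0.32). Of 16 basement membrane genes 7 were higher and 9 lower (median −0.01), and at an unadjusted p under 0.05 *Col18a1* was higher and *Hspg2* and *Itga6* lower.

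The remaining lists gave few genes at an unadjusted p under 0.05. Of the tested transcription factors 8 were higher and 17 lower (median −0.08), with *Sox7* at this p. For TGF-beta and BMP signaling 3 were higher and 8 lower, with *Id1* (−0.34), and for flow sensing and caveolae 4 were higher and 12 lower, with *Nos3* and *S1pr1* (−0.48). For glycolysis and hypoxia 9 were higher and 5 lower, with 0 genes at this p. For cholesterol synthesis 1 was higher and 4 lower, for leukocyte adhesion 1 and 3, and for pericyte recruitment 2 and 5. Lists of the vessel segments gave 2 arterial genes higher and 3 lower, 5 venous genes higher and 1 lower, and 4 capillary genes higher and 5 lower. Beside *Fmr1* itself the 3 tested genes of the FMRP family were *Fxr1* (−0.07), *Cyfip1* (−0.07) and *Fxr2* (−0.35), none at an unadjusted p under 0.05.

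Housekeeping lists were mostly higher in *Fmr1*-KO. Of 82 ribosomal protein genes 79 were higher in *Fmr1*-KO, 41 of them at an unadjusted p under 0.05 (6.93% of all genes), and the median log2 fold change was 0.35. The median was 0.07 within V2 beads and 0.42 within V3.8 beads, and without *Fmr1*-KO 3 it was 0.06, with 56 genes higher and 3 at this p. With the bead version term, leaving out *Fmr1*-KO 3 leaves only the V2 comparison against WT 1. The V2 median and the median without *Fmr1*-KO 3 are therefore not separate checks. The summed level of the ribosomal protein genes was 104154, 124822 and 142299 CPM in WT 1 to 3 and 103978, 111758 and 180999 CPM in *Fmr1*-KO 1 to 3, so that *Fmr1*-KO 3 lay above the other 5 mice and the other genotype values overlapped. Of 74 respiratory chain genes 62 were higher (median 0.25) and 23 reached an unadjusted p under 0.05, against the same 6.93%. Without *Fmr1*-KO 3 the median was 0.14 and 2 genes did.

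Genes of MHC class I and the interferon response differed between the bead versions. All 8 tested were lower in *Fmr1*-KO (median −0.48), with *B2m* and *Tapbp* among those at an unadjusted p under 0.05, but the median was 0.14 within V2 beads and −0.89 within V3.8 beads, and without *Fmr1*-KO 3 it was 0.18. *H2-K1*, a classical MHC class I gene, was at 78.1, 763 and 1418 CPM in WT 1 to 3 and at 80.7, 198 and 424 CPM in *Fmr1*-KO 1 to 3. Both WT mice with V3.8 beads were thus above all other mice, and WT 1 was as low as *Fmr1*-KO 1. Of 17 immediate early and stress genes 14 were lower (median −0.16, but −0.41 without *Fmr1*-KO 3, −0.36 without the cells that held pericyte markers and −0.38 without the bead version term), with *Jund*, *Btg2* and *Zfp36* at an unadjusted p under 0.05.

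Pericyte markers showed the same dependence on single mice. Of 4 such genes that passed the detection filter in endothelial cells 3 were higher in *Fmr1*-KO, with a median of 0.54, but the median was −0.78 within V2 beads and 1.499 within V3.8 beads. *Myl9*, a myosin light chain of contractile cells, was at 90.1, 159 and 44.2 CPM in WT and 82.6, 111 and 334 CPM in *Fmr1*-KO (log2 fold change 1.46, SE 0.39, edgeR FDR = 0.21), with the highest value in the mouse where 52.8% of the endothelial cells had 2 or more pericyte markers. *Myl9* is itself 1 of the 14 markers counted for that share, so its level and the share are not independent.

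**Figure D5:**
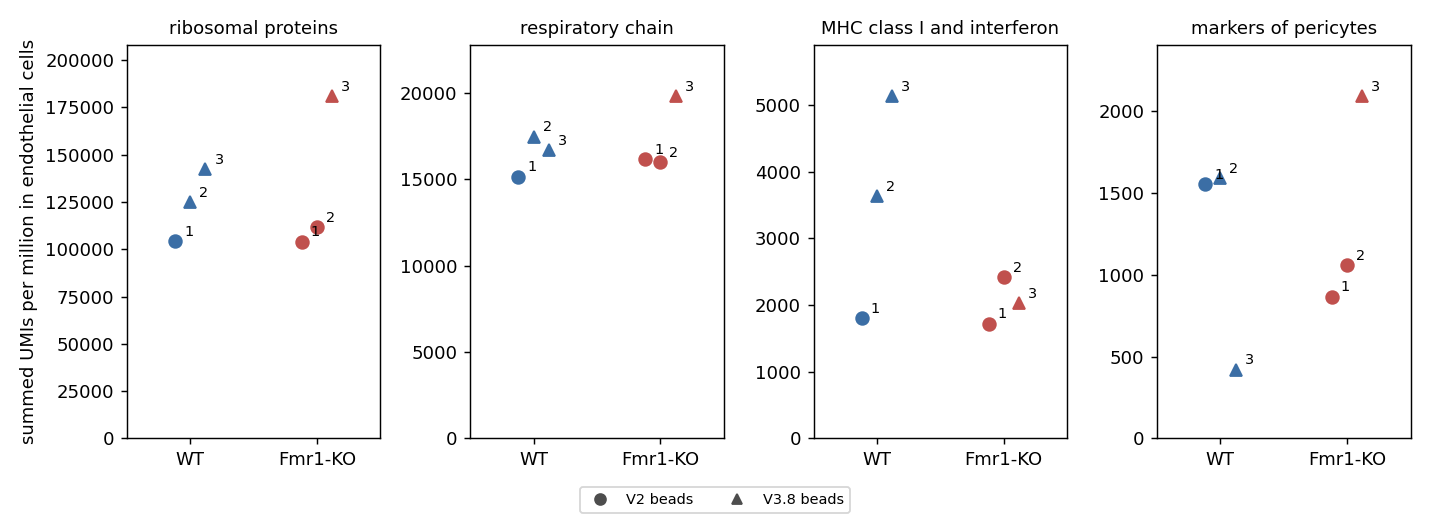
Summed level of 4 gene lists in the endothelial cells of each mouse, in CPM on axes from 0 (blue WT, red *Fmr1*-KO, circles V2 beads, triangles V3.8 beads, with the number of the mouse). *Fmr1*-KO 3 is the highest mouse for ribosomal proteins (180999 CPM), the respiratory chain (19826 CPM) and pericyte markers (2089 CPM), whereas WT 2 and WT 3 are the highest for MHC class I and interferon genes (3631 and 5137 CPM).

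Finally, it was tested whether the genotype effect differed between endothelial cells and pericytes of the same mice. Of 4573 genes tested 0 passed FDR under 0.01 in edgeR's quasi-likelihood test with the mouse as a block, and 127 (2.78%) had an unadjusted p under 0.05. In simulated counts with 200 genes changed by a log2 of 1 in endothelial cells alone, this test called 4.5% of them. This simulation too gave every gene the same dispersion. The count of 0 thus does not show that the effects are alike in both cell types. The smallest p was that of *Cd82*, a tetraspanin, which was at 129, 193 and 213 CPM in endothelial cells of WT 1 to 3 and 94.4, 140 and 155 CPM in those of *Fmr1*-KO 1 to 3. In pericytes *Cd82* had 23 UMIs in all, at 15.4, 9.74 and 23.0 CPM in WT and 0, 0 and 1.70 CPM in *Fmr1*-KO. The fitted difference of the log2 fold changes, 3.30 (SE 0.76, FDR = 1), rests on these few UMIs, and its size is uncertain. *Kdr*, the VEGF receptor, had 103 UMIs in pericytes and a difference of 1.56 (SE 0.42, FDR = 1). *Glul*, glutamine synthetase, was at 847, 546 and 483 CPM in endothelial cells of WT and 726, 917 and 373 CPM in those of *Fmr1*-KO, and at 293, 269 and 233 CPM in pericytes of WT and 162, 200 and 102 CPM in those of *Fmr1*-KO. The pericyte groups of *Glul* were separate and the endothelial groups overlapped, and the difference was 0.90 (SE 0.25, FDR = 1). The other 2 of the first 5 genes were *Lgals1* (1.95, with 102 UMIs in endothelial cells) and *Slc38a3* (3.05, with 23 UMIs in pericytes).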

How the data were processed

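Endothelial cells were analyzed in single-cell RNA sequencing (InDrop) of P5 cortex from 3 WT and 3 *Fmr1*-KO mice. The authors aligned reads to mm10 with TopHat2 2.0.14 after bcl2fastq, removed barcodes with low counts, and deposited UMI counts of 17418 genes without normalization, with the mouse, library, subtype and size factor (a ratio) of each cell. The deposited subtypes and doublet marks were taken as given. Doublets were left out.

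UMIs were summed per mouse and subtype. Genotypes were compared with edgeR 4.0.16 (quasi-likelihood test, TMM, R 4.3.3) with a term for bead version. The fit held *Fmr1* and all genes detected in 15% or more of endothelial cells, and a gene was called at a Benjamini-Hochberg FDR under 0.01 and the minimum fold change of the study's own test. The genotype by cell type term was tested with the mouse as a block. Within-bead values are log2(CPM + 0.5) differences. P-values measure the spread between 3 mice a group, and intervals counting error only. Every pair of mice differed beyond sampling noise (chi-square per degree of freedom at least 1.76).

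Genes named are those of 34 lists, the 10 higher and 10 lower with the smallest p and the same sign in both bead versions, the 20 with the largest endothelial ratio, 10 shared with pericytes and 5 of the interaction. The members and lists were chosen with earlier results of these data known, and some lists were tightened once the gene names of the table had been seen. Alternatives were no bead term, the replicate number as a block, no TMM, other filters, thinning to 700 UMIs, DESeq2 1.42.0, cells without pericyte markers, other thresholds and each mouse left out. Positions are from GENCODE M21 and promoters from RefSeq (GRCm38.p6). Values of some listed genes are left out here. Scripts in Python 3.11.15 (numpy 2.4.6, pandas 2.3.3, scipy 1.17.1) were tested on simulated data.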

Additional observations from a re-analysis of the deposited data

How the results depend on the processing

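The count of 0 genes called held under each alternative except where no filter on low counts was used (5 of 14741 genes: *Atp5k*, *Hey1*, *Lcn2*, *Myl9* and *Slc38a5*) and without WT 2 (1 gene, *Myl9*), so that leaving out 1 mouse gave 0 to 1. The 448 genes at an unadjusted p under 0.05 became 108 without the bead version term, 215 with DESeq2 and 942 without a filter, and ranged from 195 without *Fmr1*-KO 3 and 289 without WT 3 to 591 without WT 1. With the replicate number as a block in place of bead version the count was 215, no call changed, and the median of immediate early genes was −0.39. Same-numbered mice did not deviate together throughout (correlations 0.46, −0.28 and 0.53), and WT 2 correlated best with *Fmr1*-KO 3, so the numbers do not pair the mice. The difference in endothelial cells per pericyte vanished without *Fmr1*-KO 2 (log2 difference −0.0027) and reached 1.04 without *Fmr1*-KO 3. For the genotype by cell type term, filterByExpr gave 1 gene (*Eln*, with 477 UMIs in pericytes of WT 3 and at most 4 in those of any other mouse) and no filter 2 (*Eln* and *Mgp*). The named genes kept their direction and their side of the threshold in the 247 values computed with the detection filter, whereas *Atp5k*, *Hey1* and *Slc38a5* passed the threshold without it. These genes had been chosen for the smallest p and the same sign within both bead versions. Their kept direction is therefore no further support. Of the list medians 327 stayed within the spread between mice and 24 did not, among them the pericyte markers (−0.78 without *Fmr1*-KO 3, 1.53 without WT 1), the immediate early genes and the genes of dividing cells. With the bead version term, the fit without *Fmr1*-KO 3 compares the genotypes only within V2 beads, and that without WT 1 only within V3.8 beads. The alternative with doublets was chosen after seeing the data, and it gave 0 genes called and 359 at an unadjusted p under 0.05. The cause of these shifts was not tested. Depth limits low genes, with 333085 endothelial UMIs in WT 1.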
